A study of Mus musculus with 2 samples.

Results

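Interferon-stimulated genes (ISGs) are the genes that a cell switches on when interferon binds its receptors. The module described here is a list of 44 such genes set by name, with no limit on their values, and 42 of them had a row among the 32291 genes of the expression table, while Mx1 and Mx2 were not analysed here. The genes were measured by single-cell RNA sequencing of colitis-associated colon tumors (CACs) from mice, with 1 library labelled Mir34a_F/F and 1 labelled Mir34a_Mye_KO. Mir34a_F/F mice carry Mir34a alleles flanked by recombination sites, and in Mir34a_Mye_KO mice the Cre recombinase, driven by the LysM promoter that is active in myeloid cells, was added to delete Mir34a there. Both genotypes had received azoxymethane (AOM, 10 mg/kg), a carcinogen, and 3 courses of dextran sodium sulfate (DSS), which injures the colon lining, at 2.5%, 2.5% and 2% for 5 days each. Mice entered at 6 to 10 weeks of age and were sacrificed at day 110. In each genotype 6 to 8 tumors of 3 mice were pooled and 30000 cells were loaded, so each genotype was 1 pooled sample and no difference between genotypes could be tested. Cells were assigned to 11 cell types by the authors.

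In the library labelled Mir34a_F/F 20312 cells held 147109016 UMIs (unique molecular identifiers, 1 per captured mRNA molecule), with a median of 4787 per cell, and in the library labelled Mir34a_Mye_KO 18571 cells held 193133086, with a median of 7716. The median was higher in the library labelled Mir34a_Mye_KO in every cell type, most so in B cells (3664 and 20852). Defining markers were highest in the cell type of their name for 11 of 11 cell types in both libraries. The feature mir34apri, named for the Mir34a primary transcript, had 133 UMIs in macrophages of the library labelled Mir34a_F/F (95% interval 111 to 158) and 462 in those of the library labelled Mir34a_Mye_KO (421 to 506), a level of 0.0723 and 0.111 per 10000 UMIs. The feature crenlslyz2, whose name holds Cre and Lyz2, the gene of LysM, had 451 UMIs (410.3 to 495) and 172 (147 to 199.7) in the same macrophages, a level of 0.164 and 0.049. By name both features run against the labels, since the primary transcript was higher and the Cre feature lower in the library labelled Mir34a_Mye_KO. What either feature counts was not tested, and the name of the second holds Lyz2 as well as Cre. The hairpin feature had 0 UMIs in both. Which library lacks Mir34a is therefore not settled by these features, and every direction below rests on the labels alone. Levels below are UMIs of a gene per 10000 UMIs of the cell, averaged over the cells of a type. Each molecule was counted once at its 3′ end, so levels are not scaled by gene length. Ratios are given as log2 of Mir34a_Mye_KO over Mir34a_F/F with a 95% interval. Intervals reflect counting error of UMIs alone. They leave out variation between cells and, since mice were pooled, variation between animals.

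Interferons act through receptors on the cell surface that activate JAK kinases and STAT transcription factors. Type I interferons, such as interferon beta, give rise to a complex with STAT2 and IRF9 that binds interferon-stimulated response elements. Interferon gamma, made mainly by T cells and natural killer cells, leads to binding at gamma-activated sites instead. Many ISGs respond to both, while GTPases of the GBP and IRG families and the chemokine Cxcl9 respond strongly to interferon gamma.

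The core of the response element, written GAAANNGAAA and searched on both strands, was read in the 300 bases around the start of each gene (250 before and 50 after) from RefSeq (GRCm38.p6). Windows were found for 35 of the 44 members, 43 windows in all. The core was in 23 of these (53.5%), against 3.44% of 32851 windows of genes across the genome. The core of the gamma-activated site, TTCNNNGAA, was in 9 member windows (20.9%), against 8.3% of all windows. By role, at least 1 window held the first core for 4 of 5 IFIT genes and 5 of 6 GTPases with a window, but for 1 of 4 transcription factors and 1 of 4 of the members with no shared role. The share was 3 of 5 in both the OAS family and the antiviral effectors, 2 of 2 for RNA sensors, and 1 of 2 for both chemokines and the ISG15 system. Stretches from 10 members are shown because the levels below turn on these genes. They are printed 5′ to 3′ along the strand of the gene, in lower case, with the matched letters (on either strand) in capitals, and overlapping matches run together.
Isg15 promoter, chr4:156200855-156200916, minus strand: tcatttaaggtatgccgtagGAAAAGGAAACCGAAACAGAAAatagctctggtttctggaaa
Ifit3 promoter, chr19:34583353-34583436, plus strand: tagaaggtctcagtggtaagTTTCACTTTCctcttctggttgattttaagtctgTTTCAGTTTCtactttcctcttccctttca
Ifit1bl1 promoter of the first listed start, chr19:34602043-34602092, minus strand: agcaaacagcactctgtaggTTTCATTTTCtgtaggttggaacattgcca
Rsad2 promoter, chr12:26456543-26456592, minus strand: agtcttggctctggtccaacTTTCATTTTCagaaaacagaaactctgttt
Cxcl10 promoter, chr5:92349073-92349122, minus strand: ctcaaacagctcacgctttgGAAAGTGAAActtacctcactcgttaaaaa
Gbp2 promoter, chr3:142620584-142620633, plus strand: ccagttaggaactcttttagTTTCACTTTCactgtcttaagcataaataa
Gbp7 promoter, chr3:142530210-142530312, plus strand: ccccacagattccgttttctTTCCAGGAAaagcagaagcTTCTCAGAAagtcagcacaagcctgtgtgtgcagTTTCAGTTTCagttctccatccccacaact
Gbp3 promoter, chr3:142559979-142560034, plus strand: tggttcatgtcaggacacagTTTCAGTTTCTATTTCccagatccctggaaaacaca
Igtp promoter, chr11:58199491-58199551, plus strand: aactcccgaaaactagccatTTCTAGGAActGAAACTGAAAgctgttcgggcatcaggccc
Irf1 promoter, chr11:53769904-53769952, plus strand: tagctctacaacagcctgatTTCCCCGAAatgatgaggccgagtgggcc
The Isg15 stretch held 3 overlapping cores of the response element and the Gbp3 stretch held 2. Gbp7 carried 2 cores of the gamma-activated site and 1 of the response element, Igtp 1 of each, and Irf1 only the gamma-activated core. A match is a description of the letters and does not show that a factor was bound.

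The summed level of the 42 genes differed between cell types within each library. In the library labelled Mir34a_F/F it was highest in endothelial cells (15.9 UMIs per 10000), macrophages (14.9), neutrophils (13.6) and dendritic cells (13.1), and lowest in B cells (6.60). In the library labelled Mir34a_Mye_KO the same 4 cell types were highest, at 18.7, 17.0, 17.6 and 16.4, and mast cells were lowest (7.26). Epithelial cells, which include the tumor cells, stood between at 12.1 and 11.8. Macrophages exceeded epithelial cells by a log2 ratio of 0.30 (0.27 to 0.33) in the library labelled Mir34a_F/F and 0.52 (0.50 to 0.54) in the other. In the library labelled Mir34a_F/F the intervals of endothelial cells (14.6 to 17.3) and macrophages (14.6 to 15.1) overlapped, as did those of neutrophils (13.2 to 14.0) and dendritic cells (12.6 to 13.7). In the other library endothelial cells (17.4 to 20.2) and neutrophils (17.2 to 17.9) overlapped, so the order of these neighbours is not set.

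Between libraries, the summed level in neutrophils was 13.6 in the one labelled Mir34a_F/F and 17.6 in the one labelled Mir34a_Mye_KO (log2 0.37, 0.32 to 0.42). The features named for Mir34a and Cre do not settle these labels. Dendritic cells showed 13.1 and 16.4 (0.33, 0.26 to 0.39), and macrophages 14.9 and 17.0 (0.19, 0.16 to 0.22). In B cells the values were 6.60 and 7.79 (0.24, 0.17 to 0.31), in T cells 10.5 and 11.6 (0.14, 0.10 to 0.18) and in endothelial cells 15.9 and 18.7 (0.23, 0.07 to 0.40). Epithelial cells were nearly level (-0.03, -0.05 to -0.01), and this direction turned to 0.31 when UMIs were summed over cells instead of averaged. For mast cells (-0.08), basophils (-0.10), fibroblasts (0.03) and erythroid cells (0.28) the interval held 0. Fewer responding cells and less RNA per responding cell cannot be told apart in such sums.

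**Figure D1:**
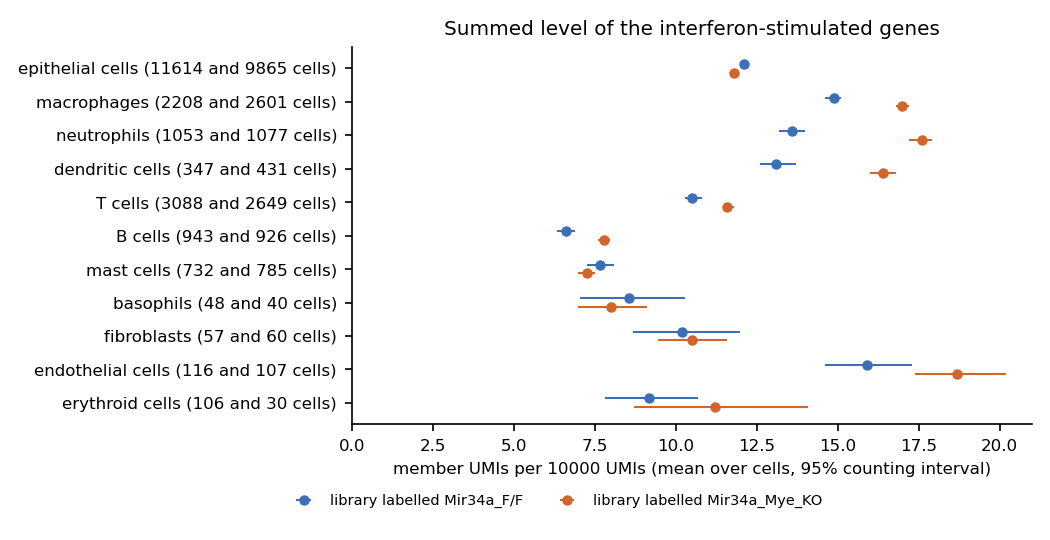
Summed level of the 42 interferon-stimulated genes (x axis, UMIs per 10000 UMIs, mean over cells) in each of 11 cell types (y axis, with the number of cells in the libraries labelled Mir34a_F/F and Mir34a_Mye_KO). Points are the libraries and bars their 95% counting intervals. Neutrophils (13.6 and 17.6), dendritic cells (13.1 and 16.4) and macrophages (14.9 and 17.0) lie apart, and epithelial cells (12.1 and 11.8) lie together.

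Each member was then placed by cell type. Of the 42 members, 9 were highest on average in epithelial cells, 9 in endothelial cells, 7 in macrophages and 7 in neutrophils, and 23 had the same highest cell type in both libraries. The same counts were not made over all genes, so they only describe the members. Endothelial cells numbered only 116 and 107, so their means carry more counting error. On the average of both libraries epithelial cells led for the IFIT genes, which encode proteins that bind foreign RNA, but in single libraries other cell types were higher for 3 of the 5. Ifit1 had 0.383 in endothelial cells against 0.316 in epithelial cells of the library labelled Mir34a_F/F, and Ifit2 had 0.237 on 3 UMIs in fibroblasts against 0.16. Ifit3 had 0.118 in neutrophils against 0.0786 in epithelial cells of the other library. Ifit1bl1 stood at 1.43 and 1.52 there, against 0.128 to 0.548 in the other cell types of the library labelled Mir34a_F/F. Epithelial cells also led for Irf7, a transcription factor that drives interferon genes (0.919 and 0.765), and for the nucleic acid sensor Zbp1 (0.522 and 0.503), with macrophages close to them (0.428 and 0.496). Reads of Ifit1bl1 and Ifit1, of Ifit3 and Ifit3b, and of Oas1a and Oas1g may be shared between near-identical copies, so single values of these genes are uncertain.

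Among the large cell types neutrophils led for Isg15, a ubiquitin-like protein that is attached to other proteins, at 2.29 and 2.74, and mast cells (1.88 and 1.79) came next. Basophils, with 48 and 40 cells, had 2.34 and 2.02. The sum of 5 neutrophil markers was 459.9 and 396 in basophils, against 1586 and 1038 in neutrophils. Its part in the Isg15 value was not tested. Neutrophils were also highest for Oas3 (0.417 and 0.536), an enzyme that makes the activator of RNase L, and for the chaperone Rtp4 (0.714 and 0.80). Dendritic cells led for Bst2, which tethers budding virus particles to the membrane, at 2.86 and 3.36, with macrophages at 1.80 and 1.79. Macrophages led for the T cell-attracting chemokine Cxcl10 (0.989 and 1.24). Its relative Cxcl9 was highest in dendritic cells in the library labelled Mir34a_F/F (0.959, against 0.775 in macrophages) and in macrophages in the other (1.07, against 0.86). In endothelial cells Iigp1, a GTPase that attacks the vacuoles of intracellular parasites, reached 2.37 and 3.41, against 0.706 and 0.881 in fibroblasts, 0.209 and 0.474 in T cells and 0.0833 and 0.229 in macrophages. Rsad2, which encodes the antiviral enzyme viperin, was highest in erythroid cells (1.92 and 2.60), of which there were 106 and 30.

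**Figure D2:**
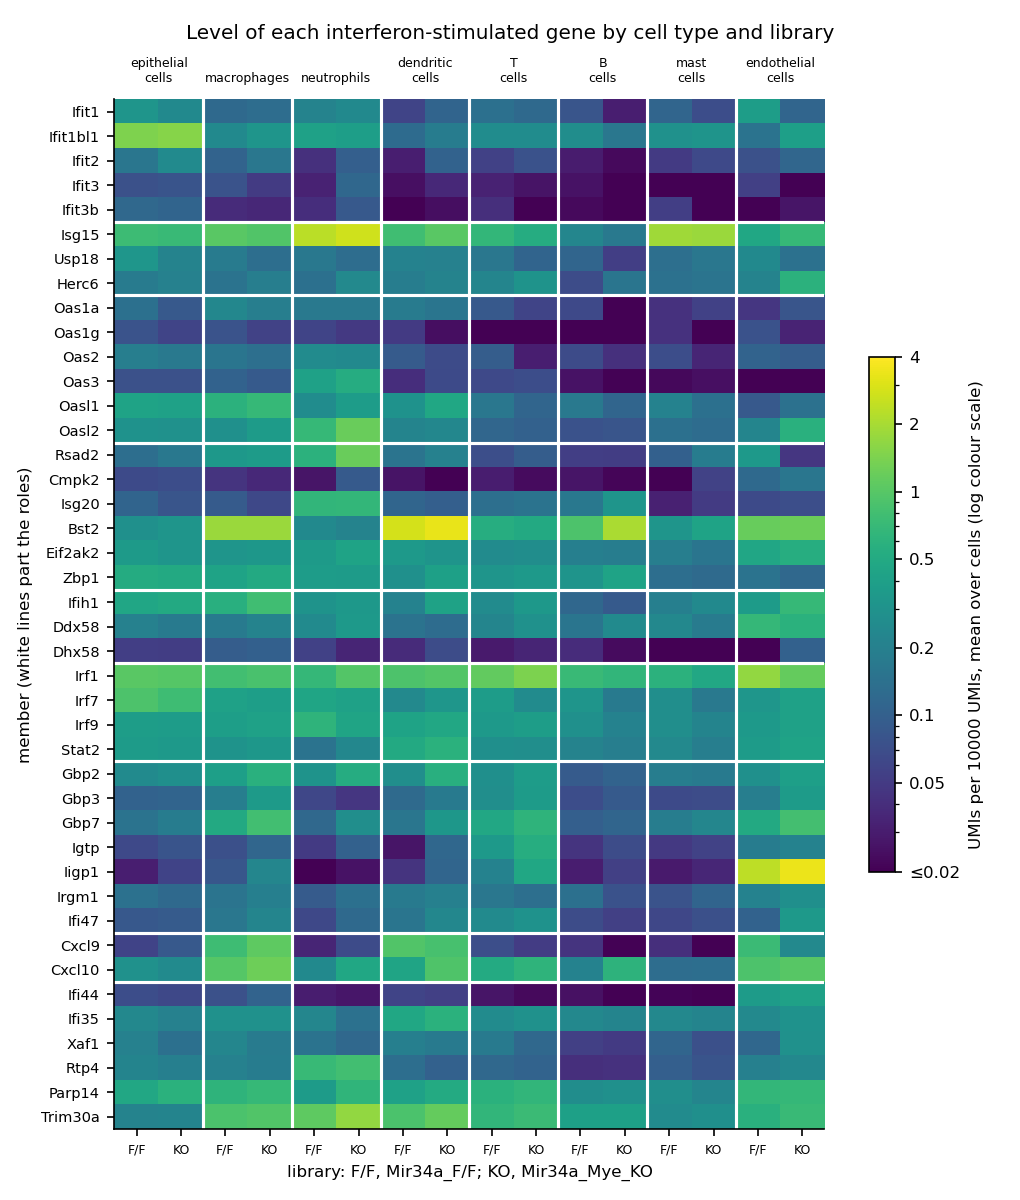
Level of each of the 42 members (rows, grouped by role between white lines) in 8 cell types and both libraries (columns), as mean UMIs per 10000 UMIs on a log colour scale. Bright cells mark Isg15 in neutrophils and mast cells, Bst2 in dendritic cells (2.86 and 3.36), Iigp1 in endothelial cells (2.37 and 3.41) and Ifit1bl1 in epithelial cells (1.43 and 1.52).

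Free RNA from broken cells adds UMIs to every droplet and bears on members that epithelial cells hold. The 5 epithelial markers Epcam, Krt8, Krt18, Krt19 and Cldn7 were found outside epithelial cells, and all 5 were lower in the library labelled Mir34a_Mye_KO in 8 of 10 other cell types, by a median log2 ratio of -1.29 in B cells to -0.50 in macrophages. In fibroblasts and erythroid cells 4 of 5 were lower. In macrophages Ifit1bl1 stood at 17.3% and 20.6% of its epithelial level, while these markers stood at 22.7% to 33.2% and 25.2% to 33.7% of theirs. Ifit1bl1 in macrophages thus stood below the range of the markers in both libraries. In B cells Ifit1bl1 was 0.271 and 0.163 (-0.74, -1.26 to -0.21). That was 19.0% and 10.7% of its epithelial level, against 28.3% to 38.5% and 19.4% to 21.6% for the markers. The part of free epithelial RNA in these values was not tested. Irf7, another member led by epithelial cells, stood at 34.2% and 22.8% of its epithelial level in B cells and at 29.8% and 22.4% in mast cells, where the markers stood at 28.3% to 38.8% and 24.1% to 27.4%. Both Irf7 and the markers were lower in the library labelled Mir34a_Mye_KO in these cell types. In that library Irf7 stood above the markers' 19.4% to 21.6% in B cells and below their range in mast cells. The part of free epithelial RNA in the Irf7 values was not tested.

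The difference between libraries was then read for each role. The 7 GBP and IRG GTPases, which assemble on the vacuoles of intracellular pathogens, differed from the sum of the other members in several cell types, a grouping chosen with values known. Their summed level in macrophages was 1.57 in the library labelled Mir34a_F/F and 2.52 in the library labelled Mir34a_Mye_KO (log2 0.68, 0.60 to 0.76), while the other 35 members gave 13.3 and 14.4 (0.12, 0.09 to 0.15). In T cells the GTPases gave 2.01 and 2.80 (0.48, 0.40 to 0.56) and the others 8.53 and 8.83 (0.05, 0.01 to 0.09). The same order was found in neutrophils (0.83 against 0.34), dendritic cells (0.86 against 0.27) and endothelial cells (0.60 against 0.09). In epithelial cells the GTPases gave 0.833 and 0.927 (0.15, 0.08 to 0.22). In B cells the order was the other way, with 0.548 and 0.564 for the GTPases (0.04, -0.22 to 0.31) and 0.25 for the others. Other roles differed as much in places, with the chemokines at 0.93 in neutrophils, the IFIT family at 0.81 and the RNA sensors at 0.64 in dendritic cells, and the OAS family at 0.73 (-0.10 to 1.58) and the ISG15 system at 0.64 (-0.01 to 1.30) in endothelial cells. The difference between roles was not tested.

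**Figure D3:**
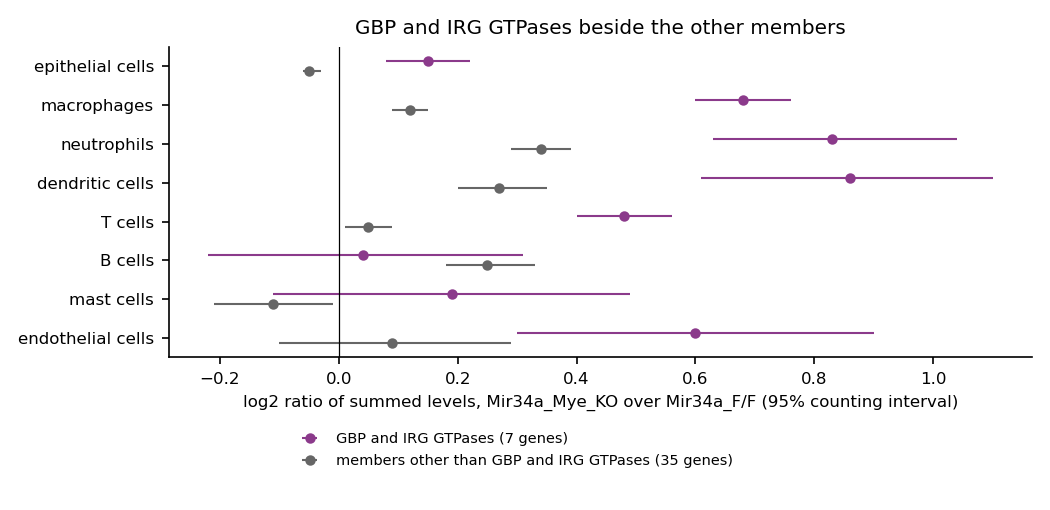
Log2 ratio of summed levels, Mir34a_Mye_KO over Mir34a_F/F (x axis), for the 7 GBP and IRG GTPases and for the other 35 members in 8 cell types (y axis). Points are ratios and bars 95% counting intervals. The GTPases lie to the right of the other members in macrophages (0.68 and 0.12), T cells (0.48 and 0.05), neutrophils (0.83 and 0.34), dendritic cells (0.86 and 0.27) and endothelial cells (0.60 and 0.09), and not in B cells (0.04 and 0.25).

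In macrophages single members were then read. Median mitochondrial content of macrophages was 2.01% and 3.75%. The sum of 6 B cell markers in them was 1.69 and 5.96, and that of 5 erythroid markers 2.57 and 0.09. The part of these shifts in the members' values was not tested. Of 33 members with an average level of at least 0.1, 4 were at least 1.5 times higher in the library labelled Mir34a_Mye_KO, against 1.69% of 8593 genes, and 0 were lower, against 3.18%. Among them were 3 of the 6 GTPases that passed this filter and 1 of 27 other members. Iigp1 had 0.0833 and 0.229 (1.46, 1.13 to 1.80). Gbp3, whose promoter is shown above, had 0.194 and 0.362 (0.90, 0.68 to 1.13). Gbp7 had 0.50 and 0.811 (0.70, 0.56 to 0.84). Gbp2 (0.53), Ifi47 (0.46) and Irgm1 (0.34) were higher by less than the fold. The fourth was Ifit2, an RNA-binding IFIT protein, with 0.108 and 0.165 (0.61, 0.29 to 0.94). The other leading members of macrophages moved less. Bst2 was level at 1.80 and 1.79 (-0.01, -0.09 to 0.07). Isg15 had 1.03 and 0.947 (-0.13, -0.23 to -0.02), and Trim30a, a regulator of NF-kB signaling, had 0.896 and 0.959 (0.10, -0.02 to 0.21). The chemokines were higher, with log2 ratios of 0.33 for Cxcl10 (0.23 to 0.43) and 0.46 for Cxcl9 (0.35 to 0.56).

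Macrophages were split by Mrc1, a mark of one macrophage state, into those with a UMI (833 and 1223 cells) and those without (1375 and 1378). GTPases stood at 1.96 and 2.95 in the former (0.59, 0.50 to 0.68) and at 1.33 and 2.13 in the latter (0.68, 0.55 to 0.81). Median depth was 10915 and 18462 UMIs in cells with Mrc1 and 5854 and 6140 in those without, so the split also sorts cells by depth. It was chosen after the data were seen. Iigp1 was found in 0.73% of macrophages in the library labelled Mir34a_F/F (exact binomial 95% interval 0.418 to 1.18) and 1.5% (1.07 to 2.05) in the other after each cell was thinned to 1000 UMIs, and in 2.99% and 8.38% before thinning. Gbp7 was found in 4.83% (3.97 to 5.82) and 6.74% (5.81 to 7.78) of thinned macrophages, and in 27.6% and 40.9% before. For both GTPases the shares of thinned cells in epithelial cells were lower, at 0.273% and 0.546% for Iigp1 and 1.53% and 1.83% for Gbp7, where the median depth was 5316 and 6623 against 7252 and 11227 in macrophages.

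Neutrophils had the largest number of members past the fold among the large cell types. Of 30 members, 10 were at least 1.5 times higher in the library labelled Mir34a_Mye_KO, against 5.40% of 7612 genes, and 1 was lower, against 11.4%. The median of the members was 0.26 and that of all these genes -0.13. Markers of neutrophils themselves moved too, with S100a8 at 610.3 and 426, S100a9 at 866 and 529, Retnlg at 105 and 74.2, Csf3r at 3.72 and 6.13 and Cxcr2 at 1.76 and 2.58. Median mitochondrial content was 1.26% and 2.83%, and the part of these shifts in the members' values was not tested. Rsad2 (viperin) had 0.604 and 1.20 (0.99, 0.77 to 1.21). Oasl2, an OAS-like protein, had 0.703 and 1.19 (0.76, 0.56 to 0.97), and Trim30a 1.08 and 1.68 (0.63, 0.47 to 0.80). Isg15, the leading member, had 2.29 and 2.74 and stayed under the fold (0.26, 0.14 to 0.37). Among GTPases, Gbp7 had 0.12 and 0.275 (1.19, 0.70 to 1.71), Gbp2 had 0.305 and 0.537 (0.82, 0.52 to 1.13) and Irgm1, which guards the cell's own membranes against IRG attack, had 0.0908 and 0.14 (0.62, 0.05 to 1.21).

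Cxcl10 in neutrophils had 0.245 and 0.465 (0.92, 0.57 to 1.29). The ADP-ribosyltransferase Parp14 had 0.368 and 0.645 (0.81, 0.54 to 1.08), and Herc6, the mouse ligase that attaches ISG15, had 0.142 and 0.243 (0.78, 0.27 to 1.31). Stat2, a transcription factor of type I signaling, had 0.152 and 0.231 (0.60, 0.14 to 1.09). The exception was Ifi35, with 0.228 and 0.144 (-0.67, -1.13 to -0.20). Irf1, a transcription factor whose promoter carries the gamma-activated core, had 0.687 and 0.96 (0.48, 0.26 to 0.71). The sum of the OAS family was 1.87 and 2.57 (0.46, 0.33 to 0.59) and that of the IFIT family 0.75 and 0.941 (0.33, 0.11 to 0.54). Neutrophils were therefore higher in 9 of 9 roles, though for RNA sensors (0.23, -0.01 to 0.47) and transcription factors (0.09, -0.05 to 0.23) the interval held 0.

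In dendritic cells 6 of 30 members were at least 1.5 times higher, against 4.96% of 8278 genes, and 0 were lower, against 6.50%. Cxcl10 had 0.442 and 0.936 (1.08, 0.76 to 1.42). Gbp7 had 0.16 and 0.332 (1.05, 0.48 to 1.66), Gbp2 0.276 and 0.565 (1.03, 0.60 to 1.48) and Ifi47, an IRG GTPase, 0.156 and 0.234 (0.59, 0.03 to 1.17). Ifih1, which encodes the RNA sensor MDA5, had 0.211 and 0.423 (1, 0.48 to 1.56). Oasl1 had 0.298 and 0.466 (0.65, 0.17 to 1.15). Cxcl9, in contrast to Cxcl10, had 0.959 and 0.86 (-0.16, -0.41 to 0.10). The leading members Bst2 (0.23, 0.09 to 0.37), Trim30a (0.885 and 1.15) and Isg15 (0.792 and 1.03) were higher by less than the fold, and Irf1 was level (0.915 and 0.97). Median depth of dendritic cells was 6768 and 13564 UMIs and median mitochondrial content 1.58% and 3.04%. The sum of 6 B cell markers in them was 1.43 and 4.22, and the part of these shifts was not tested.

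**Figure D4:**
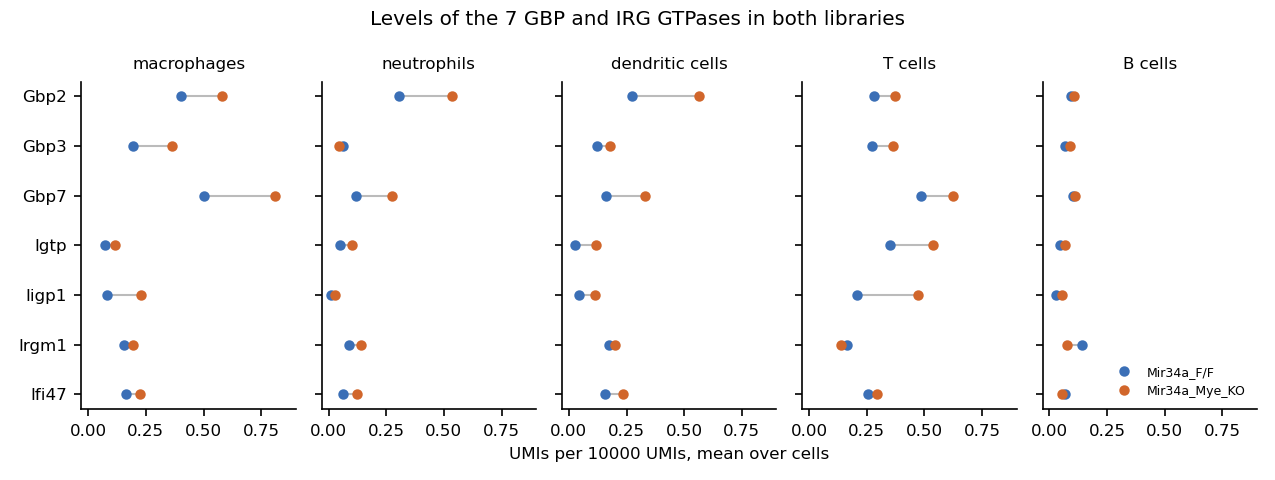
Levels of the 7 GBP and IRG GTPases (rows) in 5 cell types (panels), as mean UMIs per 10000 UMIs (x axis), with a point for each library and a grey line joining them. In T cells Iigp1 (0.209 and 0.474) and Igtp (0.352 and 0.538) part most, in macrophages Gbp7 (0.50 and 0.811), and in B cells no level passes 0.2.

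T cells differed by few members. Of 30 members, 2 were at least 1.5 times higher, against 1.66% of 8928 genes, and 0 were lower, against 7.76%. Both were IRG GTPases. Iigp1 had 0.209 and 0.474 (1.18, 0.95 to 1.41) and Igtp, whose promoter carries both cores, had 0.352 and 0.538 (0.61, 0.43 to 0.79). Irf1, the leading member of T cells, had 1.12 and 1.42 (0.34, 0.22 to 0.45). Isg15 went the other way, with 0.667 and 0.533 (-0.32, -0.48 to -0.17), as did the OAS family, with 0.546 and 0.387 (-0.50, -0.69 to -0.31). The 5 epithelial markers were lower in T cells too, by a median of -0.96. In the library labelled Mir34a_Mye_KO they stood at 25.3% to 32.2% of their epithelial level, while Oas1g stood at 15.9% and Oas2 at 18.6%, Oas1a at 67.1%, Oas3 at 93.5%, Oasl1 at 27.1% and Oasl2 at 35.6%. In the library labelled Mir34a_F/F, where the markers stood at 30.5% to 43.7%, Oas1g stood at 26.1% and Oas2 at 49%. The part of free epithelial RNA in the OAS value was not tested. Trim30a (0.65 and 0.739), Parp14 (0.587 and 0.653) and Cxcl10 (0.514 and 0.622) differed by under 0.3 on the log2 scale.

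The GTPase difference of T cells was not found in every kind of T cell. T cells with a Cd4 UMI and no Cd8a or Cd8b1 UMI (773 and 1126 cells) had GTPases at 2.21 and 3.38 (0.61, 0.49 to 0.73). Those with a Cd8a or Cd8b1 UMI and no Cd4 UMI (215 and 196 cells) had 2.19 and 2.14 (-0.03, -0.29 to 0.23). In these Iigp1 was lower, at 0.255 and 0.126 on 25 UMIs in each library (-1.01, -1.91 to -0.11), where cells with Cd4 had 0.264 and 0.587 (1.15, 0.81 to 1.51). T cells with none of these UMIs (2089 and 1299 cells) had GTPases at 1.92 and 2.38 (0.31, 0.19 to 0.43). Median depth was 3548 and 8043 UMIs per T cell, and its part in this split was not tested. The split was chosen after the data were seen, and the difference between its arms was not tested.

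In B cells 5 of 21 members were at least 1.5 times higher, against 4.09% of 8225 genes, and 4 were lower, against 24.6%. Bst2 had 0.908 and 2.04 (1.17, 1.04 to 1.30) and Cxcl10 0.211 and 0.613 (1.54, 1.23 to 1.86). Also higher were Herc6 (0.0692 and 0.158), the exonuclease Isg20 (0.167 and 0.319) and Ddx58 (0.157 and 0.255), which encodes the RNA sensor RIG-I. Lower were Irgm1 (0.142 and 0.0766), Irf7 (0.314 and 0.175), Ifit1bl1 and Oasl1 (0.17 and 0.112, at 39.7% and 26.9% of the epithelial level). Irf1 (0.721 and 0.654), Trim30a (0.404 and 0.407) and Zbp1 (0.312 and 0.433) stayed under the fold. Without Bst2 the summed ratio of B cells was 0.01. Plasma cell genes moved with it, since Jchain had 120.1 and 285 and Mzb1 4.73 and 11.1, and their part in these values was not tested. Bst2 was 0.456 and 0.776 in B cells with an Ms4a1 UMI, a marker that plasma cells lose, and 1.10 and 2.66 in those without. Median depth was 3484 and 7932 UMIs in the former and 3878 and 29967 in the latter. Jchain was higher in both, at 19.6 and 53.9 with Ms4a1 and 162 and 399.7 without. The part of depth and of plasma cell RNA in this split was not tested.

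In endothelial cells, of which there were only 116 and 107, the sum of 5 neutrophil markers was 7.18 and 32.9 and that of 5 erythroid markers 4.42 and 0.235, and their part in the values was not tested. Of the members, 9 of 34 members were at least 1.5 times higher, against 13.2% of 9566 genes, and 4 were lower, against 26.4%. Iigp1, the leading member, had 2.37 and 3.41 (0.52, 0.14 to 0.91). Ifi47 had 0.105 and 0.343 (1.70, 0.28 to 3.13), Herc6 0.214 and 0.60 (1.49, 0.41 to 2.66) and Oasl2 0.221 and 0.574 (1.38, 0.25 to 2.56). Lower were Cxcl9, with 0.737 and 0.24 (-1.62, -3.11 to -0.30), Ifit1, with 0.383 and 0.112 (-1.77, -3.29 to -0.31), and Rsad2, which rested on 13 and 2 UMIs (-2.91, -7.66 to -0.19). Irf1 (1.70 and 1.15), Bst2 (1.17 and 1.21), Cxcl10 (0.91 and 1.02) and Parp14 (0.664 and 0.683) had intervals that held 0.

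Few members were past the fold in epithelial cells. Of 31 members, 1 was at least 1.5 times higher, against 1.34% of 9009 genes, and 2 were lower, against 4.04%. These counts depended on processing. They were 6 and 0 with UMIs summed over cells and 0 and 0 with a pseudocount of 0.1. With at least 500 genes and under 10% mitochondrial content they were 1 and 4. Ifit2 had 0.16 and 0.251 (0.65, 0.52 to 0.78). Usp18, the protease that removes ISG15 and dampens the type I receptor, had 0.323 and 0.215 (-0.59, -0.71 to -0.46), and Oas1a had 0.142 and 0.0883 (-0.68, -0.85 to -0.52). Of the leading members, Ifit1bl1 (0.09, 0.05 to 0.14), Irf1 (1.03 and 0.991), Isg15 (0.754 and 0.732) and Parp14 (0.483 and 0.588) stayed under the fold, and Irf7 was lower by -0.26 (-0.33 to -0.20). The 5 epithelial markers were all lower in these cells, by a median of -0.52 (Krt8 26.9 and 16.8, Cldn7 14 and 8.65). Median mitochondrial content of epithelial cells was 11.2% and 18.3%, and the part of either in these values was not tested.

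Mast cells and the 3 cell types with few cells remain. In mast cells 1 of 22 members was at least 1.5 times higher, against 3.78% of 8361 genes, and 1 was lower, against 14.3%. The lower one was Irf7, with 0.273 and 0.171 (-0.68, -1.23 to -0.11). In basophils 4 of 24 were higher, against 21.6%, and 8 lower, against 31.4%. In fibroblasts 9 of 30 were higher, against 19.6%, and 11 lower, against 29.5%. Among the latter cells Cxcl10 had 0.305 and 0.751 on 14 and 62 UMIs (1.30, 0.25 to 2.41). In erythroid cells 9 of 24 were higher, against 35.7%, and 5 lower, against 30.9%. Bst2 was among the higher, with 0.137 and 1.27 on 4 and 14 UMIs. Basophils, fibroblasts and erythroid cells had 30 to 106 cells in a library, and their values rest on few UMIs.

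The ligands and receptors of the pathway were measured in the same cells. Of 21 interferon genes, Ifng had 710 UMIs in the library labelled Mir34a_F/F and 1514 in the other, and was the only one with an average of at least 0.1 in a cell type. Its level in T cells was 0.353 and 0.51 (0.53, 0.37 to 0.69). In T cells with no Cd4, Cd8a or Cd8b1 UMI Ifng was 0.299 and 0.621 (1.05, 0.83 to 1.29), while it was level in those with Cd8 (0.881 and 0.895) and in those with Cd4 (0.352 and 0.327). The cells without these UMIs were 67.6% and 49% of T cells (2089 and 1299), with a median depth of 3081 and 6468 UMIs. Whether a UMI is found depends on depth, so this group may hold different T cells in each library. The part of this in the Ifng value was not tested. Interferon beta (Ifnb1) had 28 and 30 UMIs in all cells, Ifnk 55 and 61, and the alpha interferon genes 0 to 3 each. Depth differs between the libraries, so these totals are not levels.

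The interferon gamma receptor chain Ifngr1 was highest in T cells at 4.46 and 6.14 (0.46, 0.41 to 0.51), against 1.29 and 1.5 in macrophages and 0.987 and 1.03 in epithelial cells. The second chain, Ifngr2, went down in T cells, with 0.694 and 0.527 (-0.40, -0.56 to -0.24). The type I receptor chain Ifnar2 had 0.96 and 1.35 in neutrophils (0.49, 0.31 to 0.67) and 1.53 and 1.69 in macrophages. No receptor gene of the 6 that passed the filter on level was past the fold in epithelial cells, macrophages, neutrophils, dendritic cells or T cells. In B cells Ifnar2 was 0.479 and 0.725 and Ifngr2 0.732 and 0.439.

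Of 5 genes that carry the receptor signal, 2 were higher by the fold in neutrophils, against 5.40% of all genes. The kinase Jak2 was 1 of them, with 2.86 and 5.31 (0.89, 0.79 to 1). In T cells 1 of 5 was higher, against 1.66%, and in mast cells 1 of 5, against 3.78%. None was past the fold in epithelial cells, macrophages, dendritic cells or B cells. Of the upstream sensors and their factors, 2 of 9 that passed the filter on level were higher by the fold in dendritic cells, against 4.96% of all genes. They were Tlr7, a receptor for single-stranded RNA, with 0.118 and 0.313 (1.40, 0.79 to 2.06), and the transcription factor Irf8, with 2.99 and 4.54 (0.60, 0.46 to 0.74). In neutrophils 1 of 7 was higher, against 5.40% of all genes, and 2 were lower, against 11.4%. The higher one was the lipopolysaccharide receptor Tlr4 (1.36 and 2.17). The lower were Tmem173, which encodes STING (0.233 and 0.135), and Irf3 (0.231 and 0.153). In epithelial cells 1 of 6 was lower, against 4.04% of all genes, namely Tmem173 with 0.454 and 0.277 (-0.71). In macrophages, T cells and B cells none of 8, 7 and 6 was past the fold. Of the 7 inhibitors, 4 to 6 passed the filter on level in epithelial cells, macrophages, neutrophils, dendritic cells, T cells and B cells. In neutrophils 1 of 5 was lower, namely Socs1 (0.139 and 0.085), against 11.4% of all genes. No other that passed was past the fold in these 6 cell types.

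A wider list of 74 interferon-responsive genes, outside the members, had 71 rows. In neutrophils 12 of 45 that passed the filter on level were at least 1.5 times higher and 3 lower, against 5.40% and 11.4% of all genes. The counts were 7 and 1 of 55 in dendritic cells (against 4.96% and 6.50%), 5 and 1 of 56 in T cells (1.66% and 7.76%) and 3 and 0 of 58 in macrophages (1.69% and 3.18%). They were 6 and 7 of 49 in B cells (4.09% and 24.6%) and 0 and 1 of 46 in epithelial cells (1.34% and 4.04%). Further GTPases were among them, with Gbp5 at 0.0613 and 0.176 in neutrophils (1.52, 0.95 to 2.12), Gbp4 at 0.14 and 0.225 in macrophages (0.69) and Gbp6 at 0.205 and 0.332 in T cells (0.69). Ciita, which switches on MHC class II genes, was among the 3 in macrophages (0.182 and 0.287), and Nlrc5, which does so for class I genes, among the 12 in neutrophils (0.167 and 0.32). Cd274, which encodes the checkpoint ligand PD-L1, had 2.29 and 4.04 in neutrophils (0.82, 0.70 to 0.94). Ifitm3, which blocks virus entry, was lower in epithelial cells (7.70 and 4.68) and neutrophils (11.9 and 7.57). It was also lower in T cells (3.25 and 1.85) and B cells (3.29 and 1.48). Epithelial markers were lower in these cell types and also in macrophages and dendritic cells. The part of free epithelial RNA in the Ifitm3 values was not tested.

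At full depth most cells held a member UMI. Only 10.3% and 8.61% of epithelial cells then had none. The top 5% of epithelial cells held 28.5% and 28.2% of the summed level, against 16.8% and 14.4% in B cells. Macrophages (24.2% and 21.5%) and neutrophils (23.3% and 25.5%) lay between. After thinning to 1000 UMIs per cell, 44.9% of epithelial cells in both libraries had none, and 54.8% and 52.5% of B cells. The top 5% of thinned cells held 31.7% and 31.5% of member UMIs in epithelial cells and 23% and 22.2% in B cells. Mast cells (27.5% and 29.6%) and dendritic cells (24.7% and 30.5%) lay between. A thinned cell with at least 10 member UMIs was called high. In epithelial cells 101 of 10987 were high in the library labelled Mir34a_F/F (0.919%, 0.749 to 1.12) and 85 of 9705 in the other (0.876%, 0.70 to 1.08), which is within counting error. Shares were 1% and 1.27% of macrophages (0.63 to 1.51 and 0.877 to 1.78), 0.585% and 1.58% of neutrophils (0.215 to 1.27 and 0.923 to 2.52) and 0.20% and 0.265% of T cells. None was found in 931 and 922 B cells, which allows a share of up to 0.322% and 0.325% (3 cells of the total). The exact binomial interval, used for the other shares, reached 0.395% and 0.399%. The variance of member UMIs per thinned macrophage was 3.11 and 2.92 times their mean.

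The high epithelial cells were then compared with the other epithelial cells. Members were used to choose these cells, so their own ratios are a description, and 31 of 31 members that passed the filter on level were at least 1.5 times higher than in other epithelial cells in both libraries. Of the 46 other interferon-responsive genes, 39 were higher by the fold in both libraries, with medians of 2.06 and 2.02, against 12.4% and 15.3% of 8978 genes other than members in each library. Among the exceptions, Ifitm3 was lower in high cells, at 4.45 against 7.67 and 2.51 against 4.67 (-0.79 and -0.89). Apobec3 was nearly level (0.12 and -0.09). Genes outside the members with an average of at least 0.1 in epithelial cells of the library labelled Mir34a_F/F were ranked by their ratio in that library. The largest ratios belonged to Ddx60, a helicase that aids RNA sensing (0.321 in other cells and 6.17 in high cells of the library labelled Mir34a_F/F, 0.39 and 7.85 in the other), Slfn4 (1.74 and 20.5, 1.68 and 23), Ido1, which breaks down tryptophan (0.152 and 1.71, 0.143 and 1.29), Trim30d, Sp100, Rnf213, the ubiquitin-like Ubd (1.45 and 12.2, 1.39 and 14.1) and Znfx1. By log2 ratio Ddx60 gave 4.27 and 4.33, Slfn4 3.56 and 3.78, and Znfx1, the last of the 10, 3.03 and 2.96. Slfn5, whose average lay under this limit, had 4.68 and 4.45. Psca and Ppbp were also among the 10, but 118 of 120 and 73 of 74 of their UMIs lay in 1 cell, and neither was higher in the other library.

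High epithelial cells also differed in genes of the epithelium itself. The Wnt targets Axin2 and Lgr5, a stem cell marker, were lower, at 0.364 against 1.5 and 0.247 against 1.32 for Axin2 (-2.04 and -2.42) and by -1.55 and -2.32 for Lgr5. The proliferation marker Mki67 was lower by -1.47 and -2.32 and the goblet cell mucin Muc2 by -1.30 and -2.75. Of 5 differentiation genes, Krt20 (1.80 and 1.97) and Clca4a (2.99 and 3.05) were higher in both libraries. Car1 had 0.20 (-0.12 to 0.51) and 1.19 (0.99 to 1.38), and Slc26a3 and Aqp8 had at most 4 UMIs in the high cells of a library. Also higher were the nitric oxide synthase Nos2 (2.28 and 2.43), the oxidase Duox2 (1.79 and 1.97) and serum amyloid Saa1, at 53.6 against 11.8 and 37.1 against 9.28. The inflammation marker Lcn2 was not, with -0.21 (-0.55 to 0.12) and -1.12 (-1.71 to -0.58), and 64 of its 111 UMIs in high cells of the library labelled Mir34a_F/F lay in 1 cell. Reg3b split, with 2.91 and -1.09, but 212 of its 306 UMIs in high cells of the library labelled Mir34a_F/F lay in 1 cell. Median depth was 6288 against 5661 and 13559 against 6727 UMIs for high and other cells, and its part in these ratios was not tested.

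**Figure D5:**
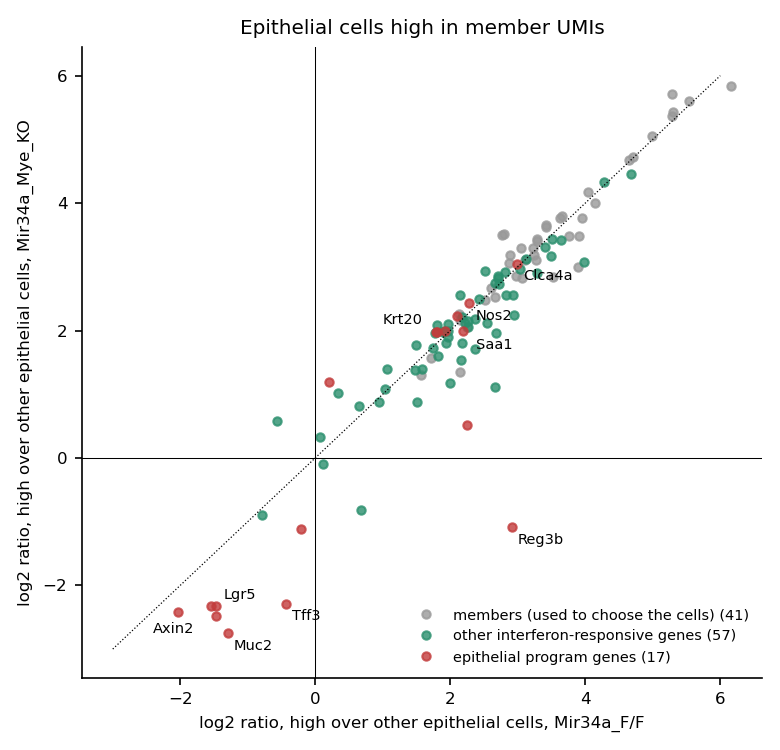
Log2 ratio of mean levels in epithelial cells high in member UMIs over other epithelial cells, in the library labelled Mir34a_F/F (x axis) and Mir34a_Mye_KO (y axis). Points are genes with at least 10 UMIs in the high cells of each library, grey for members (which chose the cells), green for other interferon-responsive genes and red for epithelial program genes, and the dotted line marks equal ratios. Axin2, Lgr5 and Muc2 lie below 0 and Clca4a, Nos2 and Saa1 above 0 in both libraries.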

How the data were processed

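CACs of both genotypes were measured with 10x 3′ v3.1 chemistry, 1 library per genotype. The authors counted UMIs with Cell Ranger 7.2.0 against mm10, filtered cells, removed doublets with Scrublet and used LogNormalize of Seurat. The deposited values are natural logs, taken by the authors after scaling each cell to 10000 UMIs and adding 1, and come with the authors' cell types. The log was undone and whole UMIs were recovered (largest deviation 1.5e-10). The filter stated is over 200 genes and under 25% mitochondrial content, yet 2470 and 4130 cells were at or over 25%, and all deposited cells were kept. The libraries shared 96 barcode sequences (0.517% of the smaller library).

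The members and lists were chosen with earlier results of these data known. A level is the mean over cells of UMIs per 10000. Named are, in 7 cell types, the 5 members highest on average and those with an average of at least 0.1, a ratio of at least 1.5 and an interval off 0, besides pathway genes and the 10 largest ratios outside the members in high epithelial cells. A few small cell type values and the T cell, macrophage and B cell splits were chosen after values were seen. With 1 library per genotype no test was made and no p-value computed. Intervals are 95%, exact Poisson for UMI sums and exact binomial for shares. For means and ratios of means, effective counts (the squared mean over its Poisson variance) replaced the planned summed UMIs. On simulated data intervals from summed UMIs, set around the ratio of means, held the true ratio too rarely. All intervals reflect counting error alone, and those of levels and ratios leave out variation between cells. Promoter windows came from RefSeq, GRCm38.p6, and those of 1 chromosome were left out.

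Scripts ran under Python 3.11.15. The packages were scipy 1.17.1, numpy 2.4.6, matplotlib 3.10.9 and pandas 2.3.3. Alternatives were summed UMIs, thinning to 1000 UMIs, both cell filters (the stated one, and at least 500 genes with under 10% mitochondrial content), pseudocounts of 1 and 0.1, other minimum levels, other limits for high cells and leaving out the highest member.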

Additional observations from a re-analysis of the deposited data

Results flagged for a closer look

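In each of the following pairs the cell types differed in opposite directions between the libraries, with intervals off 0 in both, and these differences were not tested. The summed level of all members had log2 ratios of 0.37 in neutrophils and -0.03 in epithelial cells, a gap of 0.40. The epithelial direction depends on how cells are weighted. The IFIT family had 0.81 in dendritic cells and -0.83 in B cells, a gap of 1.64, the widest of these pairs. In B cells of the library labelled Mir34a_Mye_KO the 5 IFIT genes stood between 9.13% (Ifit2) and 17.8% (Ifit3) of their epithelial level, below the 19.4% to 21.6% of the 5 epithelial markers. In B cells of the other library 4 of the 5 were below the markers' 28.3% to 38.5%, and Ifit3 stood at 34.8%. In dendritic cells of the library labelled Mir34a_F/F the IFIT genes rested on 85 UMIs and stood between 8.98% (Ifit1bl1) and 33.1% (Ifit3), against 19.7% to 26.1% for the markers. In those of the other library Ifit1 stood at 44.4%, Ifit2 at 41.8% and Ifit3 at 46.7%, above the markers' 18.7% to 26.1%, Ifit3b at 22.1% and Ifit1bl1 at 12.2%. The part of free epithelial RNA in the IFIT values was not tested. The OAS family had 0.46 in neutrophils and -0.52 in B cells, a gap of 0.97. Of the 6 OAS genes in B cells of the library labelled Mir34a_Mye_KO, Oas1a (17.7%) stood below the markers' 19.4% to 21.6%. The others stood above them, from 24.8% (Oas2) to 28% (Oas3). The markers were lower by a median of -1.29 in B cells, and the part of free RNA in the OAS value was not tested either. The ISG15 system (Isg15, Usp18 and Herc6) had 0.28 in dendritic cells and -0.15 in T cells, a gap of 0.43. The transcription factors Irf1, Irf7, Irf9 and Stat2 had 0.13 in T cells and -0.38 in mast cells, a gap of 0.51.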

How the results depend on the processing

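No paired analysis was possible because each genotype had 1 library. Of the summary results, 127 values stayed within the stated spread or within 1.5 times the count, 62 moved and 3 turned direction. Among the counts in B cells, mast cells, basophils, fibroblasts, endothelial cells and erythroid cells and the shares of high cells outside epithelial cells, macrophages and neutrophils, 82 stayed and 42 moved, and none turned.

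With UMIs summed over cells, so that deep cells weigh more, the members' ratio turned to 0.31 in epithelial cells and was 0.31 in macrophages, 0.44 in dendritic cells and 0.20 in T cells. The GTPases then gave 0.34 in epithelial cells, 0.80 in macrophages and 0.58 in T cells, and macrophages exceeded epithelial cells by 0.42 and 0.41 in the libraries labelled Mir34a_F/F and Mir34a_Mye_KO. Members past the fold were then 6 higher and 0 lower in epithelial cells, 7 higher in macrophages and 0 lower in neutrophils. Under the stated cell filter the epithelial ratio turned to 0.04, GTPases gave 0.32 there, and macrophages exceeded epithelial cells by 0.23 and 0.38. With at least 500 genes and under 10% mitochondrial content, members gave 0.23 in macrophages and 0.41 in endothelial cells, GTPases 0.40 in epithelial cells, macrophages over epithelial cells 0.47 and 0.73, 4 lower members in epithelial cells, 2 lower in T cells, and 0.5% high epithelial cells in the library labelled Mir34a_Mye_KO. Thinned cells gave 0.09 in T cells and 0.10 in B cells for the members and 0.26 for GTPases in endothelial cells. Without the highest member, B cells gave 0.01 and macrophages over epithelial cells 0.15 and 0.40.

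With no minimum level, higher members were 3 in epithelial cells, 18 in neutrophils and 12 in dendritic cells, and lower members 1 in macrophages, 2 in neutrophils, 2 in dendritic cells and 3 in T cells. With a minimum of 0.5, higher members were 0 in epithelial cells, 1 in macrophages, 4 in neutrophils, 1 in dendritic cells and 0 in T cells, and lower members 0 in epithelial cells and neutrophils. A pseudocount of 0.1 left 0 higher and 0 lower in epithelial cells, 0 lower in neutrophils and 1 higher in T cells. High cells at 5 member UMIs were 4.8% and 4.07% of epithelial cells, 5.7% and 6.51% of macrophages and 5.46% and 7.25% of neutrophils, and at 20 they were 0.118% and 0.134%, 0.182% and 0.193%, and 0.0975% and 0.186%.

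Alternatives for the GTPases were chosen after seeing the data. Their T cell ratio turned to -0.03 in cells with Cd8a or Cd8b1, and was 0.61 in cells with Cd4 and 0.31 in cells with none of these. Macrophages with Mrc1 gave 0.59. The causes were not tested. Depth limits rare members most, and pooled mice leave the variation between animals unmeasured.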

Other observations

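Cd274 also followed the members within epithelial cells. In high epithelial cells its level exceeded that of other epithelial cells by a log2 ratio of 2.70 in the library labelled Mir34a_F/F and 2.86 in the library labelled Mir34a_Mye_KO. These cells were chosen by member UMIs, so this is a description.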
